A study of Mus musculus with 8 samples.

Results

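The luminal and basal keratins examined here were 8 of the 17258 genes with a value in seminal vesicle tissue, chosen by symbol: Krt7, Krt8, Krt18 and Krt19 as luminal keratins, and Krt5, Krt14, Krt15 and Krt17 as basal keratins. The tissue came from male outbred Swiss mice 8 to 12 weeks of age, 4 of which had been injected intraperitoneally with acrylamide at 25 mg/kg on 5 consecutive days and 4 with the PBS vehicle, and it was collected 72 h after the last injection. The prostate had been dissected off and the fluid removed before poly(A) RNA was sequenced. Acrylamide is a toxicant formed in heated food, and the comparison asked what an acute exposure does to the transcripts of this gland. Levels are given in normalised reads, that is, reads per gene scaled by the authors between libraries, with 1 value per gene and group. These values carry no spread between mice, so none of the 8 keratins has an SD or a test here, and the 95% intervals given for ratios cover counting error only.

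Keratins are the intermediate filament proteins of epithelial cells, and a filament needs a type I and a type II keratin in equal amounts, because the building block is a pair of one of each. In a simple or glandular epithelium such as that of the seminal vesicle, the secretory luminal cells carry type II Krt8 with type I Krt18 and Krt19, and Krt7 is a further type II keratin of ducts and glands. Basal cells, which sit under the luminal cells on the basement membrane, carry type II Krt5 with type I Krt14, and Krt15 is a further type I keratin of basal layers. Krt17 is a type I keratin of epidermal appendages and of basal cells, known in skin for its induction by injury and inflammation.

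The 8 genes lie in the pair of keratin clusters of the mouse genome, which hold the type I genes on chromosome 11 and the type II genes, with Krt18, on chromosome 15 (GRCm38). Krt18 (chr15:102028216-102032026) is the only type I gene of the chromosome 15 cluster and lies 23.9 kb from Krt8 (chr15:101996711-102004342), its partner in the filament. Krt15 (chr11:100131759-100135949) and Krt19 (chr11:100140810-100145926) lie 4.9 kb apart although they are markers of different layers. Krt14 (chr11:100203162-100207510) and Krt17 (chr11:100256215-100261029) are separated by 48.7 kb, and Krt7 (chr15:101412403-101427806) and Krt5 (chr15:101707069-101712905) by 279.3 kb.

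Neighbouring keratins share stretches of coding sequence, which bears on how firmly a read of 100 bases can be given to 1 of them. For that reason, stretches of Krt14 and Krt15 that Krt16 or Krt17 also holds are shown. The longest stretch was sought only in chosen pairs of genes. Krt15 also shares runs of 50 bases with a further keratin, which are not shown. The stretches shown were read from the GENCODE transcripts on the minus strand of chromosome 11. The first is common to Krt14 and Krt17, starts at coding base 1216 of Krt14 (chr11:100204114-100204184), and is 71 bases long, with the 55 bases that Krt16 also holds in capitals. The second is common to Krt14 and Krt16, starts at coding base 306 of Krt14 (chr11:100207017-100207150), and is 134 bases long. The third is the longest stretch of Krt15 that Krt17 also holds, at 50 bases (chr11:100135448-100135497).
Krt14 and Krt17: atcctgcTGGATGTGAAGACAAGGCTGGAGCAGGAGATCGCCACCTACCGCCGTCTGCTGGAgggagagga
Krt14 and Krt16: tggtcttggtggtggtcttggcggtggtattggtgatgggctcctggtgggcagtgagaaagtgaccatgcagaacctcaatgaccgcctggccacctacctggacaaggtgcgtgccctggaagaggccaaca
Krt15 and Krt17: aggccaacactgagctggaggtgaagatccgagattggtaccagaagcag

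No run of 100 bases in the transcripts of Krt7, Krt15, Krt17, Krt18 or Krt19 occurred in a transcript of another gene. Of the runs of that length in Krt14, 2.88% occurred elsewhere, all in Krt16, a gene with no row in the table. In Krt5 the share was 3.81%, mostly in Krt6a, which had a single read in the 8 libraries. Krt8 was the least distinct, since 17.1% of its runs occurred elsewhere, nearly all in the pseudogene Krt8-ps, which also has no row. The Krt8 value is therefore less certain than the other 7. No reads are listed for the pseudogene, so whether any of its reads were counted under Krt8 cannot be seen. Runs were compared singly, without the other read of a pair.

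Divided by transcript length, the 3 major luminal keratins stood far above the rest in both groups. Krt18 had 5005 normalised reads per kb after acrylamide and 5592 per kb in controls. Krt19, the type I keratin without a tail domain, had 3402 per kb after acrylamide and 3503 per kb in controls. Krt8 had 2488 per kb after acrylamide and 2876 per kb in controls, and these 3 genes ranked 97th, 148th and 197th per kb of 16487 genes after acrylamide, and 101st, 156th and 182nd in controls.

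The basal keratins and Krt7 lay far below these. Krt5 had 344 normalised reads per kb after acrylamide and 316 per kb in controls. Krt14 had 293 per kb after acrylamide and 248 per kb in controls, while Krt15 had 237 per kb after acrylamide and 262 per kb in controls. Krt14 and Krt15 thus stood in opposite order in the 2 groups, and without a spread between mice it cannot be said whether they differed in either.

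Krt17 and Krt7 closed the order, again in opposite places. Krt17 had 73.3 normalised reads per kb after acrylamide and 38.8 per kb in controls, and Krt7 had 47.4 per kb after acrylamide and 50.6 per kb in controls. The place of Krt7 rests on the transcript length used, which is 4094 bases with 1371 of them coding, for divided by coding length it stood above Krt17 in both groups (142 per kb against 87.5 per kb after acrylamide, and 151 per kb against 46.3 per kb in controls). The luminal label therefore covers genes of very different level, with Krt7 at 0.0190 of the Krt8 level per kb after acrylamide and 0.0176 in controls (0.0427 and 0.0395 per kb of coding length).

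**Figure D1:**
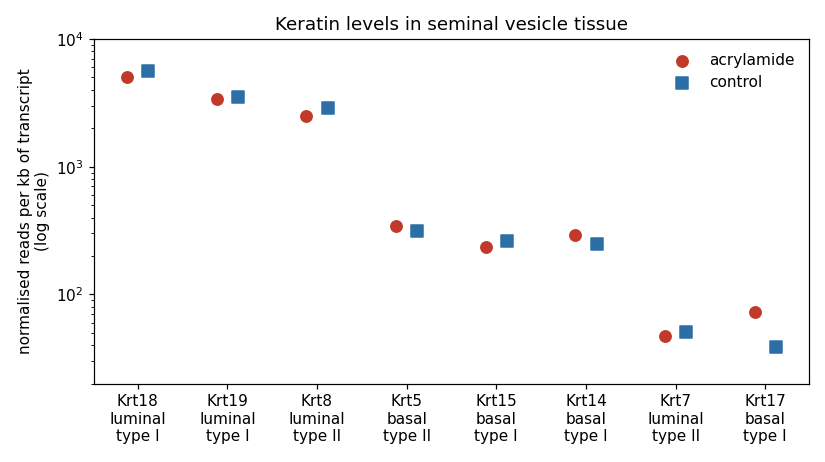
Level of the 8 keratins in normalised reads per kb of transcript (log axis), with the acrylamide value and the control value of each gene; each point is 1 value for a group of 4 mice, so no error bar can be drawn. Krt18, Krt19 and Krt8 lie between 2488 and 5592 per kb, and the other 5 genes at or below 344 per kb.

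Summed per kb, the luminal keratins reached 10943 normalised reads after acrylamide and 12022 in controls, and the basal keratins 947 after acrylamide and 865 in controls. Luminal keratins made up 92.0% of the summed level after acrylamide and 93.3% in controls, or 11.6 times the basal sum after acrylamide and 13.9 times in controls. Together the 8 genes held 99.6% of the normalised reads of all keratins in either group. They held 0.0707% of the reads of all genes after acrylamide and 0.0679% in controls.

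The label of the 2 sets was compared with other markers of the same layers. Among luminal epithelial markers, the adhesion protein Epcam had 1796 normalised reads after acrylamide and 2005 in controls, Cd24a 16438 and 16454, and the tight junction protein Cldn3 2564 and 3086. Among basal markers, the transcription factor Trp63 had 246 normalised reads after acrylamide and 225 in controls, and the hemidesmosomal integrin Itgb4 494 and 439. Both layers were thus present by markers outside the keratins, and in whole tissue such as this fewer cells of a type and less RNA per cell cannot be told apart. The genes named here set no direction for a layer. Of the markers with a mean of at least 10, 2 of 8 luminal ones were above a log2 ratio of 0 and 3 of 9 basal ones below it.

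The luminal keratins were close to their control level. Krt18 had 7193 normalised reads after acrylamide and 8036 in controls, a ratio of 0.895 and a log2 ratio of −0.16 (counting interval −0.18 to −0.14). Krt8, its partner, had 4872 after acrylamide and 5631 in controls, a ratio of 0.865 and a log2 ratio of −0.21 (−0.24 to −0.18). The intervals are narrow because many reads lay behind each gene, about 30603 after acrylamide and 30491 in controls for Krt18, and they leave out the spread between mice.

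Krt19 had 5361 normalised reads after acrylamide and 5521 in controls, a ratio of 0.971 and a log2 ratio of −0.04 (counting interval −0.07 to −0.02). Krt7 had 194 after acrylamide and 207 in controls, a ratio of 0.936 and a log2 ratio of −0.10 (−0.24 to 0.05). All 4 luminal log2 ratios were below 0, with a median of −0.13. Of the 13002 genes with a mean of at least 10 normalised reads, 49.9% were below 0 as well, with a median of 0.00.

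Genes of the same level were set beside each luminal keratin, namely those with a mean within 1.5-fold of it. Of 133 genes at the level of Krt18, 59.4% were at least as far from a log2 ratio of 0, and their median was −0.16. The share was 29.6% of 199 genes for Krt8, 85.6% of 188 for Krt19 and 54.8% of 2857 for Krt7. None of the luminal keratins stood apart from genes of its own level.

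The sign of the luminal ratios depended on how the groups were scaled. When the summed reads of all genes were set equal, which added 0.17 to every log2 ratio, Krt8 was at −0.035, Krt18 at 0.014, Krt7 at 0.079 and Krt19 at 0.13. When the Svs genes, which encode the main secreted proteins of the gland and made up most of all reads, were left out of that sum, the addition was 0.06 and Krt19 alone of the luminal keratins was above 0, at 0.015. A direction for the luminal keratins as a set can therefore not be given.

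Of the basal keratins, Krt17 had the largest ratio, and it was the only keratin of the 8 past the 1.5-fold threshold that the study used. Krt17 had 114 normalised reads after acrylamide and 60.2 in controls, a ratio of 1.89 and a log2 ratio of 0.92 (counting interval 0.69 to 1.15). This rests on about 484 reads in the 4 acrylamide libraries and 228 in the 4 control libraries. Of all genes with a mean of at least 10, 5.08% were past the fold in either direction with 4.15% higher and 0.931% lower, against 1 of 8 keratins, which was higher. At a fold of 2 the share of all genes was 1.63%, and 0 of 8 keratins passed as deposited.

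Among 2051 genes at the level of Krt17, 1.51% had a ratio as high, and 1.85% were as far from 0 in either direction. The log2 ratio of Krt17 was 1.09 with the totals set equal and 0.98 without the Svs genes, as both scalings add to the ratio of every gene alike. The deposited values do not show how these reads fell among the 4 mice of a group, so a single library with a high Krt17 level and a like shift in all 4 cannot be told apart. In genes with few reads, where counts per library could be recovered, the SD of log2(normalised reads + 1) over 4 libraries was 0.44 after acrylamide and 0.43 in controls at the median. Those genes had fewer reads than Krt17 and their SD includes counting error, so it does not give the spread of Krt17.

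Krt14 and Krt5, the main basal pair, were slightly above their control level as deposited. Krt14 had 497 normalised reads after acrylamide and 421 in controls, a ratio of 1.18 and a log2 ratio of 0.24 (counting interval 0.14 to 0.33). Krt5 had 756 after acrylamide and 694 in controls, a ratio of 1.09 and a log2 ratio of 0.12 (0.05 to 0.20). With the totals set equal, which adds the same amount to every gene, they were at 0.41 for Krt14 and 0.30 for Krt5.

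Krt15 lay on the other side, with 402 normalised reads after acrylamide and 445 in controls, a ratio of 0.903 and a log2 ratio of −0.15 (counting interval −0.25 to −0.05), but with the totals set equal it was at 0.027. Of genes at the level of Krt14, 8.57% of 2811 were at least as far from 0. The share was 35.8% of 2098 genes for Krt5 and 28.4% of 2877 for Krt15. The basal keratins were thus not of a single direction as deposited, with 3 of 4 above 0 and a median log2 ratio of 0.18.

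**Figure D2:**
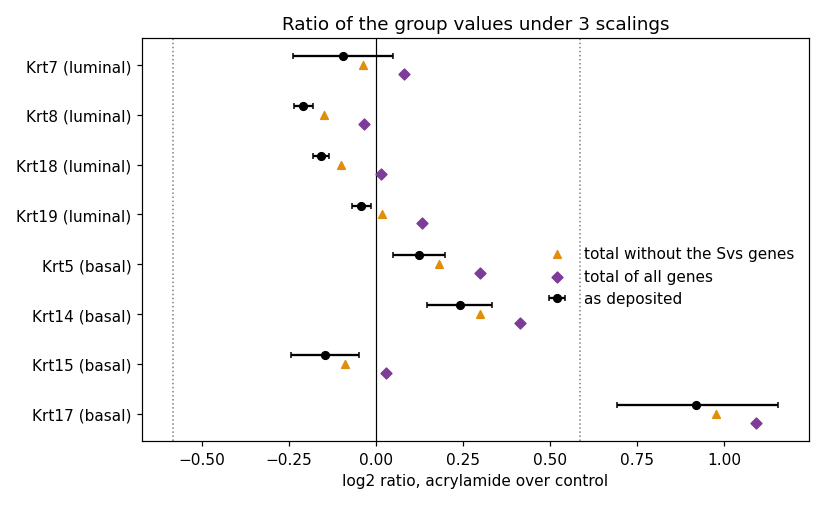
Log2 ratio of acrylamide over control for each keratin, as deposited with its 95% counting interval, and after setting equal the totals of all genes or of all genes without the Svs genes. Krt17 is at 0.92 to 1.09 under each scaling, and Krt7, Krt15, Krt18 and Krt19 change side of 0 with the scaling.

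The log2 ratio also varied with transcript length over all genes with a mean of at least 100 (Spearman's rho 0.50 over 8721 genes, a description across genes, which are not independent). Genes within 20% of the length of Krt17 had a median log2 ratio of −0.11, and those of the length of Krt14 and Krt15 had −0.10. The luminal genes Krt18, Krt19 and Krt8 had like-length medians of −0.12, −0.11 and −0.09, beside −0.16, −0.04 and −0.21 of their own. Krt5 was at 0.12 beside −0.07 for its length, and Krt7, with the longest transcript, was at −0.10 beside 0.01. The part of transcript length in the keratin ratios was not tested.

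**Figure D3:**
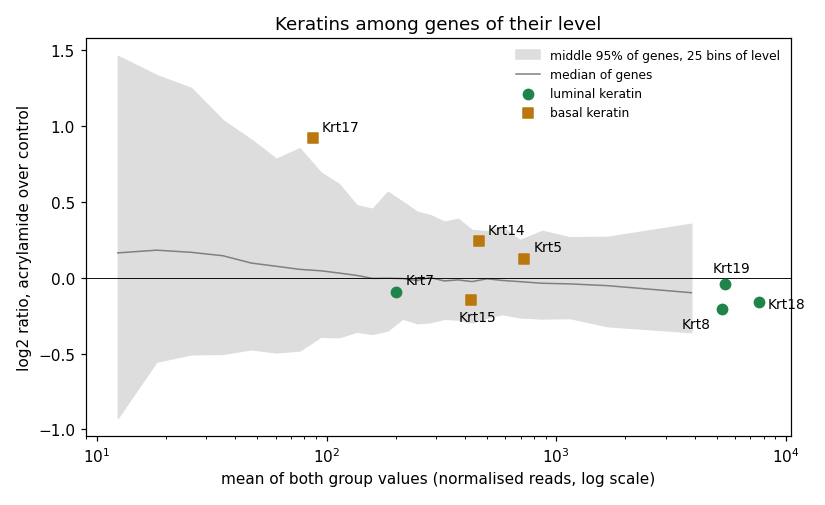
Log2 ratio of acrylamide over control against the mean level (normalised reads, log axis) for the 8 keratins, over the median and the range holding 95% of all genes of each level, drawn up to the median of the most abundant bin, short of Krt8, Krt18 and Krt19. The luminal keratins Krt8, Krt18 and Krt19 lie at −0.21 to −0.04, and Krt17 at 0.92.

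Ratios between members were then taken within each group. Krt8 per kb was 0.497 of Krt18 after acrylamide and 0.514 in controls. Krt5 was 1.17 times Krt14 after acrylamide and 1.27 times in controls. All type II members together were 0.320 of all type I members after acrylamide and 0.336 in controls, so that type I transcripts exceeded type II transcripts in both groups.

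Other pairs were compared in the same way. Krt17 per kb was 0.250 of Krt14 after acrylamide and 0.156 in controls. Krt18 was 14.6 times Krt5 after acrylamide and 17.7 times in controls, and Krt19 was 0.680 of Krt18 after acrylamide and 0.627 in controls. Per kb of coding length, Krt15 was 0.677 of Krt5 after acrylamide and 0.816 in controls. These within-group ratios do not depend on the scaling between groups, but they carry no spread between mice either.

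The other keratins of the clusters were scarcely expressed. RefSeq places 53 keratin genes in them, of which 30 had a row in the table, and besides the 8 members 22 were listed. Those 22 together had 85.6 normalised reads after acrylamide and 87.7 in controls. Only Krt23, Krt78 and Krt10 had a mean of at least 10, and none of these was past the fold.

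For 21 of these 22 keratins the whole reads in each library could be recovered, so the libraries can be compared one by one, and 6 had at least 10 reads in all. Libraries are numbered within each group by size factor, the number that scales the reads of a library, largest first. They are not matched to mice. Krt78, a type II keratin, had 20, 13, 50 and 17 reads in the acrylamide libraries, against 21, 11, 21 and 14 in the control libraries. Krt10, the keratin of differentiating epidermal cells, had 19, 5, 12 and 12 reads after acrylamide, against 12, 16, 16 and 11 in controls. In both genes the groups overlapped, and a single acrylamide library gave Krt78 its highest value.

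Krt4, the keratin of internal stratified epithelia, had 4, 20, 3 and 5 reads after acrylamide, against 2, 26, 3 and 2 in controls. One library of each group therefore held most of its reads. The same libraries held the most reads of the uroplakin Upk1a, with 5, 20, 10 and 11 after acrylamide, against 4, 28, 17 and 8 in controls. The uroplakin Upk3b, with 4, 7, 12 and 3 reads after acrylamide, against 2, 7, 2 and 2 in controls, was highest in the same control library but in another acrylamide library. Whether urinary tract tissue was present in those libraries was not tested.

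Krt80 had 6, 5, 7 and 2 reads after acrylamide, against 3, 0, 8 and 5 in controls. Krt31, a hair keratin, had 5, 5, 1 and 4 reads after acrylamide, against 11, 3, 4 and 2 in controls. Krt1, the epidermal partner of Krt10, had 0, 2, 4 and 5 reads after acrylamide, against 1, 1, 0 and 0 in controls. The 2 groups overlapped in each of the 6 genes, and exact two-sided permutation tests over the 70 divisions of 8 libraries gave p from 0.171 to 0.743, with Benjamini-Hochberg adjusted p from 0.781 to 0.967 over 3788 recovered genes. The smallest p this design allows is 0.0286, which 4.04% of those 3788 genes reached, or 153 genes, and with the adjustment 0 genes were at or below 0.1.

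**Figure D4:**
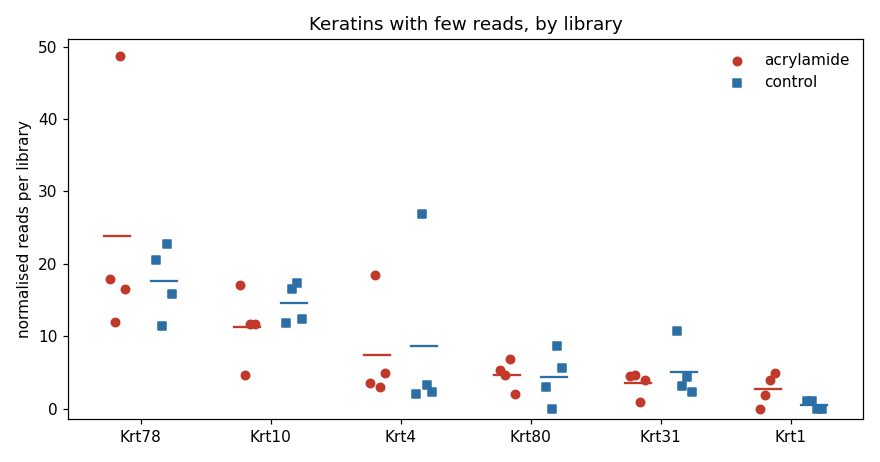
Whole reads per library, divided by the size factor, of the 6 other keratins with at least 10 reads in all; points are the 4 acrylamide and the 4 control libraries and bars their means. The groups overlap in every gene, and Krt4 has 1 high library in each group.

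Of the remaining 15 recovered keratins, each with 1 to 7 reads, Krt20, a keratin of gut epithelium and urothelial umbrella cells, had 1, 0, 1 and 1 reads after acrylamide and 0 in each control library. Krt13, a partner of Krt4, had 2, 3, 0 and 0 reads after acrylamide, against 0, 1, 0 and 0 in controls. These counts are too low to set a direction.

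The remaining intermediate filament proteins and the proteins that anchor keratins were read as lists. Of 8 filament proteins with a mean of at least 10, 6 were above a log2 ratio of 0, with a median of 0.31. The nuclear lamin Lmnb1 alone was past the fold, with 51.1 normalised reads after acrylamide and 28.5 in controls. Desmin (Des), the filament protein of muscle, had 9965 after acrylamide and 7795 in controls, Synm, its partner, 1651 and 1192, and the lamin Lmna 1352 and 1401.

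Of 16 linkers and regulators of keratins, 12 were above 0, with a median log2 ratio of 0.04, and 0 were past the fold. Plec, which ties keratins to hemidesmosomes, had 1357 normalised reads after acrylamide and 1129 in controls. Jup, the plakoglobin of desmosomes, had 1338 after acrylamide and 1319 in controls, and the kinase Csnk1a1 2227 and 2303. Their log2 ratios ran from −0.25 to 0.34, and with the totals set equal the median was 0.22 and 15 of 16 were above 0. That scaling adds 0.17 to every gene, and the share of all genes above 0 under it was not counted. The list also holds long transcripts, such as Plec at 15455 bases, and the part of length in these ratios was not tested.

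Marker lists of the cell types the tissue could hold were set beside the keratins, by summed level and by the genes with a mean of at least 10. The lists hold short and long transcripts, such as Cldn3 at 1259 bases and Itgb4 at 6208. The part of length in the marker ratios was not tested. Of 8 luminal epithelial markers 2 were above a log2 ratio of 0 (median −0.02, sum 28972 normalised reads after acrylamide and 29802 in controls), and of 9 basal markers 6 were (median 0.09, sum 1549 and 1373). With the totals set equal, which raises every gene alike, these counts were 6 of 8 and 8 of 9, and the share of all genes above 0 was not counted. None of these epithelial markers was past the fold. A further luminal marker, Muc1, fell below that mean, with 5.95 normalised reads after acrylamide and 2.41 in controls. It had 6, 3, 7 and 9 reads in the acrylamide libraries, against 2, 1, 1 and 5 in the control libraries, so the groups overlapped.

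Markers of muscle, vessels, immune cells and fibroblasts were mostly above 0 as deposited. All 6 smooth muscle markers were (median 0.32, sum 68408 after acrylamide and 55045 in controls), with Actg2 past the fold at 7778 and 5100. So were all 5 endothelial markers (median 0.24, sum 880 and 729), all 5 immune markers (median 0.33, sum 821 and 540) and 4 of 6 fibroblast markers (median 0.35, sum 5590 and 4890). The immune marker Cd3e, at 0.08, had 37, 6, 8 and 11 reads after acrylamide, against 18, 15, 8 and 11 in controls. Its place above 0 rests on a single acrylamide library, and its difference in mean log2(normalised reads + 1) was −0.20. The immune markers past the fold were Lyz2 (518 after acrylamide and 306 in controls) and Ptprc (125 and 81.6). Lyz2 and Ptprc have 1 value per group, so a single high library and a shift in all 4 cannot be told apart. The part of these markers in the Krt17 value was not tested.

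Markers of urothelium and of prostate lobes were read too, without a call on whether such tissue was present. Of 3 uroplakins 1 was above 0 (median log2 ratio −0.16, sum 1522 normalised reads after acrylamide and 1608 in controls), led by Upk1b. Of 6 prostate markers 3 were above 0 (median −0.02, sum 86040 after acrylamide and 106370 in controls), with the sum mostly from Spink1 and Tgm4. Both are also abundant secretory transcripts of the seminal vesicle itself, so this sum cannot show whether prostate tissue was present. Pbsn, of the same list, had 10922 normalised reads after acrylamide and 12107 in controls. Msmb had 89, 2, 26 and 1 reads in the acrylamide libraries, against 2, 0, 83 and 0 in the control libraries. Whether these reads came from prostate tissue was not tested. The cornified epidermis list summed to 11.6 after acrylamide and 16.0 in controls and had 0 genes with a mean of at least 10. The mesothelium list had 1 such gene, Wt1, at a log2 ratio of 0.21.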

How the data were processed

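Poly(A) RNA of the 8 libraries was sequenced on DNBSeq as pairs of 100 bases. Per the paper, the authors mapped reads to mm10 with HISAT2 and counted them with RSEM. In the deposited signal columns each gene has a single value for each group, which the authors made from reads scaled with DESeq2 size factors, without division by gene length. The deposited log2 fold change, fold, p-value, adjusted p and −log10 columns hold the authors' own comparison and were not used.

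About 29.2 M reads in genes per acrylamide library and 29.4 M per control library lay behind the values. A log2 ratio is the acrylamide over the control value, and its counting interval is the exact Clopper-Pearson interval at 95% of the share of reads. Averaging the group values gives the mean over the 8 libraries, so for genes summing to at most 250 normalised reads the digits of that average were searched for whole reads per library. Of 5857 genes 5835 gave 1 solution, 19 gave several and 3 gave none. On simulated data, 318 of 318 genes summing to 150 or less were recovered right, and 235 of 246 above that, with 0 wrong. No member could be recovered. In 1579 recovered genes the group ratio differed from that of the recovered means by 0.0037 at the median and 0.033 at most (log2). The labels give 4 mice per group. Recovered reads were compared by exact permutation of log2(normalised reads + 1), with 0.5 and 5 as alternatives. Lengths came from GENCODE vM21 and gene positions from RefSeq. The software was numba 0.67.0, scipy 1.17.1, numpy 2.4.6, matplotlib 3.10.9 and pandas 2.3.3 under Python 3.11.15.

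Members and lists were chosen with earlier results of these data known. Named genes are the 8 members and, of each other list, up to 4 genes past the fold with a mean of at least 10 and up to 3 with the highest level. Krt1, Krt6a, Krt8-ps, Krt13, Krt16, Krt20, Epcam, Muc1, Msmb and Cd3e were named outside this rule, after their values were seen. The result of 1 marker list is not reported here.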

Additional observations from a re-analysis of the deposited data

Results flagged for a closer look

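In groups of 4 libraries with recovered reads, 3 of the 12 looked at had a library far from the others. The rule used, Dixon's critical value, is set at 1 in 20 for normally distributed values, which low read counts are not. The share of all recovered genes past the same rule was not counted, so these 3 cannot be called an excess. Krt4 had 18.39 normalised reads in an acrylamide library, with the other 3 at 2.92 to 4.87, and 26.94 in a control library, with the other 3 at up to 3.25. Krt78 had 48.66 normalised reads in an acrylamide library, with the other 3 at up to 17.96.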

How the results depend on the processing

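Setting the totals of all genes equal moved the log2 ratio of Krt7 to 0.079, Krt8 to −0.035, Krt18 to 0.014, Krt19 to 0.13, Krt5 to 0.30, Krt14 to 0.41 and Krt15 to 0.027. Leaving the Svs genes out of the totals moved Krt8 to −0.15, Krt18 to −0.10 and Krt19 to 0.015. At a fold of 2, 0 keratins passed as deposited. The share of all genes past the 1.5-fold threshold was 17.3% with no minimum level, 11.8% with a minimum of 1 and 1.39% with a minimum of 100. Undivided by length, the luminal share was 90.9% after acrylamide and 92.3% in controls. Leaving out each library in turn gave differences from 0.76 to 1.61 for Krt1, −0.67 to −0.10 for Krt10, −0.62 to 0.0011 for Krt31, −0.30 to 0.96 for Krt4, −0.15 to 0.50 for Krt78 and −0.24 to 0.85 for Krt80 (log2). Without acrylamide library 1, Krt1 (1.61) and Krt10 (−0.67) reached the smallest p that the exact permutation test then allows. With all 8 libraries the same test gave p of 0.171 for Krt1 and 0.229 for Krt10. Both runs were picked after each library had been left out for each of these keratins. The share of all recovered genes at that p without this library was not counted, so neither can be called a difference. The sign turned for Krt31 without control library 1 (0.0011), for Krt4 without acrylamide library 2 (−0.30), control library 1 (−0.11) or control library 4 (−0.07), for Krt78 without acrylamide library 3 (−0.15) and for Krt80 without control library 2 (−0.24). The causes were not tested. No paired analysis was possible because the values per group carry no replicate numbers. Counting depth limits the ratio of Krt7, whose interval spans 0, and the keratins with few reads. The spread between mice is missing for all 8 members.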
